A study of Mus musculus with 12 samples.

Results

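The genes of cholesterol and fatty acid synthesis were described in mouse bone marrow progenitors that carried leukemia-associated mutants of CSF3R, CEBPA, both or neither. The 33 members were found by symbol in the deposited count table, which held 51912 genes, and comprised 7 enzymes from acetyl-CoA to farnesyl diphosphate, 11 enzymes from squalene to cholesterol, 4 genes of sterol sensing and transfer, 8 genes of fatty acid synthesis and desaturation, and 3 targets of the liver X receptors (LXR). They were chosen by pathway and symbol with no cut on a measured value, but with earlier results of these data known. All 33 passed the filter on low counts, as did 16360 genes in all.

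RNA-seq had been performed on 12 libraries in 4 groups of 3, named A, B and C. All cells were C57BL/6 mouse marrow cells that were transduced with retrovirus in medium holding IL-3, IL-6 and SCF, and sorted for the vectors' fluorescent proteins and for the absence of mature lineage antigens. The first group expressed both mutants, CSF3R T618I (an activating change in the G-CSF receptor) and CEBPA V314VW (a C-terminal change in a transcription factor of the myeloid lineage), the next CEBPA V314VW alone, the next CSF3R T618I alone, and the last carried empty vector. The mutants were expressed from retroviral vectors in cells that kept their own Csf3r and Cebpa genes, from female mice, with marrow donors aged 6 to 12 weeks. Whether a letter marks 1 animal is not stated in the sources used here, so p-values measure the spread between these samples.

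Cells make cholesterol from acetyl-CoA through mevalonate, farnesyl diphosphate and lanosterol, and make fatty acids from the same acetyl-CoA. When membranes run short of sterol, the sterol regulatory element-binding proteins (SREBP) leave the endoplasmic reticulum and raise transcription of nearly all of these enzymes together, while INSIG proteins hold them back when sterol is plentiful. Excess sterol is turned into oxysterols, which activate LXR and raise the exporters ABCA1 and ABCG1 and the ubiquitin ligase MYLIP, which lowers sterol uptake. Dividing blood progenitors draw on both routes to build membranes.

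Library totals ran from 44210071 to 67431235 counts, and levels are given as CPM, counts scaled to library size with TMM factors. T and B cell markers summed to at most 0.5578 CPM in any library, with Cd8a at 0 in all 12, whereas the progenitor genes Kit and Myb averaged 47.5 ± 27.1 and 306 ± 17.8 CPM in mutant CSF3R cells, their lowest group. Marker sums differed between groups. The 9 erythroid genes found of 10 listed summed to 262.4 to 276.5 CPM with both mutants, 48.7 to 57.97 with mutant CEBPA, 512.2 to 796.3 with mutant CSF3R and 79.25 to 89.41 with empty vector. The 10 mitosis genes summed to 2821 to 2845, 2154 to 2327, 3104 to 3499 and 2462 to 2544 CPM in the same groups, and the 10 macrophage genes to 48.45 to 68.69, 54.94 to 70.8, 102.8 to 212.8 and 124.4 to 218.6 CPM, with the complement gene C1qa at 0 in all mutant CEBPA and empty vector libraries. The part of these differences in the results below was not tested, and in sorted bulk cells fewer cells of a type and less RNA per cell cannot be told apart.

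The 3 mutant CSF3R libraries differed from each other more than the libraries of the other groups. The median coefficient of variation over the members was 4.04% with both mutants, 10.1% with mutant CEBPA, 15.5% with mutant CSF3R and 11.4% with empty vector. Library A was the lowest and C the highest of the 3 for 18 members, and the reverse held for 9. Each library's deviation from the mean of all 12 libraries, which also holds differences between groups, was set against exon length across genes. The correlation was r = -0.291 in mutant CSF3R A, -0.228 in B and 0.144 in C. It was 0.187 in empty vector A, and between -0.0658 and 0.148 in the other 8 libraries. Results with mutant CSF3R are therefore given with and without library C where it changed a count.

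The promoters of the 3 members that rose more than 2-fold with mutant CEBPA, and of Mvk as an enzyme of the same stretch as Hmgcs1 that did not, are shown from RefSeq (GRCm38.p6), from 250 bases before to 50 bases after the start. Capitals mark the sterol regulatory element TCACNCCAC, the SREBP motif, and the NF-Y motif CCAAT or its reverse ATTGG. The windows are chr13:119690101-119690400 (plus strand) for Hmgcs1, chr4:53159846-53160145 (minus strand) for Abca1, chr13:45389492-45389791 (plus strand) for Mylip and chr5:114444019-114444318 (plus strand) for Mvk.
Hmgcs1: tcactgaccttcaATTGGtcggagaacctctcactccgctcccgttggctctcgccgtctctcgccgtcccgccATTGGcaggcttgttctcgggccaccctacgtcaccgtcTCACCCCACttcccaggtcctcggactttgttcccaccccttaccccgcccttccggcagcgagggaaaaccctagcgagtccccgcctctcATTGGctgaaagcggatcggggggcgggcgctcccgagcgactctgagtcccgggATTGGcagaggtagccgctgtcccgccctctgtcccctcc
Abca1: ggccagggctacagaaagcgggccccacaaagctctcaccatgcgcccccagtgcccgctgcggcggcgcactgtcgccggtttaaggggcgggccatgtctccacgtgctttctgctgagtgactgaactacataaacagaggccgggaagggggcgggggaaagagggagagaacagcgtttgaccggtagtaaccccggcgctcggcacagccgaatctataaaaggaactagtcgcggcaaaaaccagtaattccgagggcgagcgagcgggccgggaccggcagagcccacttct
Mylip: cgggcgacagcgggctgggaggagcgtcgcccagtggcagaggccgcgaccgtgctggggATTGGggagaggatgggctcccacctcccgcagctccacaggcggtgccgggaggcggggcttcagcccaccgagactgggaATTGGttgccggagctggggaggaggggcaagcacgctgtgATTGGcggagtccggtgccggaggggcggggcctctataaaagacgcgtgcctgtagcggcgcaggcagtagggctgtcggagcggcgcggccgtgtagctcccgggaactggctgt
Mvk: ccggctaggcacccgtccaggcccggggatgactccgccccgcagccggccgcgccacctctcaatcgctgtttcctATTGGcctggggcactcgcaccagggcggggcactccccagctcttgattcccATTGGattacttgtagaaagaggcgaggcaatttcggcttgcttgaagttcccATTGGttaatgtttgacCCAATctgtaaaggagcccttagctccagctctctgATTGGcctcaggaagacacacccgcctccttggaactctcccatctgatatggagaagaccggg

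The Hmgcs1 window held the sterol regulatory element 137 bases before the start, as TCACCCCAC, and NF-Y letters at 4 places. It was the 1 window with those exact letters among the 25 members matched (4.0%), against 1.44% of the 27025 genes in the table. Forms of the element that differ from TCACNCCAC by a base were not counted, so its absence from the other members is not shown. NF-Y letters, which SREBP target promoters are known to carry, were found in 20 of the 25 members (80%) and in 41.1% of all genes. The Sp1 letters GGGCGG were in 21 members (84.0%) and 38.2% of all genes. The shares over all genes include genes that did not pass the filter on low counts and are not matched for GC content. The higher shares are therefore not shown to be particular to these pathways. The letters TTGCNNAA, a form of the C/EBP motif that was chosen after the data were seen, were in the windows of Dhcr7 and Nsdhl, 8.0% of members and 12.2% of genes, and not in the 4 windows printed. Both strands were searched, and adjoining Sp1 and NF-Y matches can share their end bases. Fdps, Fdft1, Sqle, Stard4, Scd1, Scd2, Fads1 and Abcg1 were not matched to a promoter window and so were not searched.

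Per kilobase of merged exon, Acly, Scd2 and Fasn led in empty vector cells, while the other fatty acid genes ranked from 15 to 32 of 33. Acly, which makes cytosolic acetyl-CoA from citrate, had the highest level (106 ± 16.8 CPM per kb, SD, n = 3), followed by the desaturase Scd2 (70.7 ± 13.1) and fatty acid synthase Fasn (43.2 ± 11.9). Fasn did not differ beyond its spread from the squalene epoxidase Sqle (34.7 ± 3.87), and Acat2, Srebf2, Cyp51 and Hmgcs1 followed between 32.3 and 27.9. The LXR targets and Scd1 were at the other end, with Abca1 lowest at 0.0793 ± 0.0284 CPM per kb. Hmgcs1 ranked 8 of 33 in empty vector cells. It reached 79.9 ± 8.62 CPM per kb with mutant CEBPA, where Acly alone had a higher mean. With both mutants it reached 76.7 ± 1.41, below Acly (117 ± 1.70) and Scd2 (89.6 ± 2.23).

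Of the 33 members, 18 passed an adjusted p of 0.05 (edgeR quasi-likelihood test, Benjamini-Hochberg over all 16360 genes) in at least 1 of 5 pairwise comparisons, and 4 of them with a log2 change over 1. The other 15 passed in none. Each comparison alone called 2812 to 3509 of the 16360 genes, and the number called in at least 1 was not counted. The 18 members therefore have no background share beside them. Against empty vector, mutant CEBPA raised Hmgcs1, Abca1 and Mylip (9.09% of members, 9.50% of all genes). It lowered 5 other members slightly (15.2%, against 7.68% of all genes). Mutant CSF3R raised 7 members (21.2%, against 10.0% of all genes) and lowered 2 (6.06%, against 9.66%). All of these but Scd1 changed by less than 1 on the log2 scale with mutant CSF3R.

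**Figure D1:**
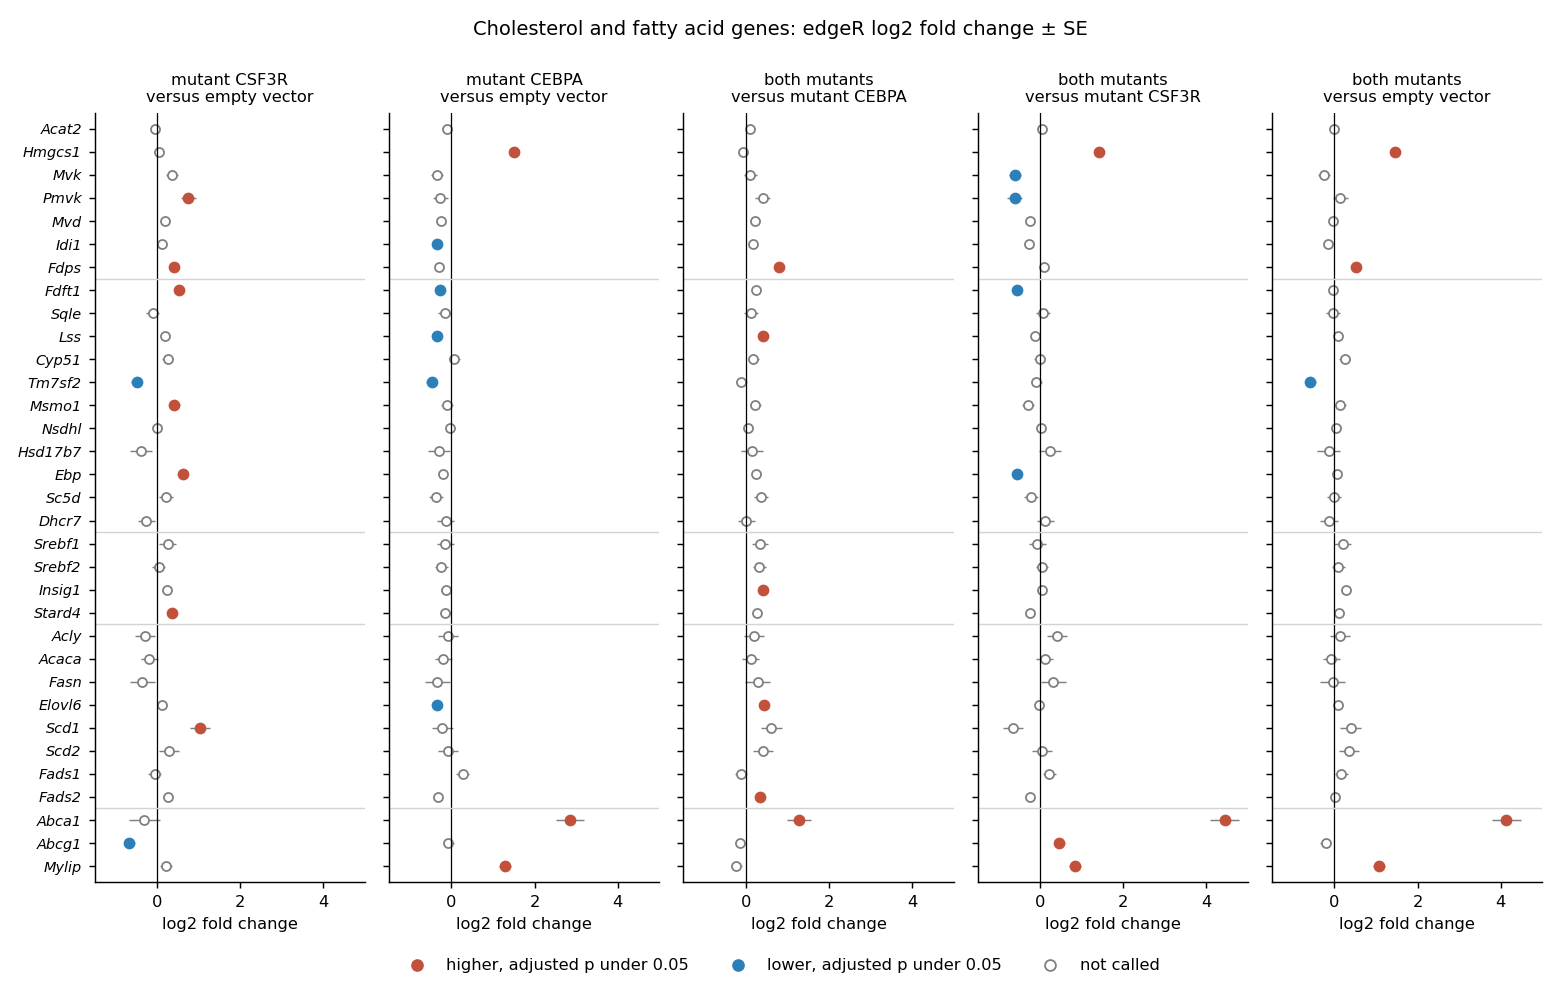
Log2 fold change ± SE (x axis) of each member (y axis, in 5 blocks by role) in 5 comparisons, a panel each. Red points passed an adjusted p of 0.05 upward, blue points downward, open points did not. Hmgcs1, Abca1 and Mylip lie to the right of 0 in each panel where mutant CEBPA was added, and most other points lie within 1 of 0.

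Hmgcs1, the cytosolic HMG-CoA synthase that commits acetyl units to mevalonate, was 2.86-fold higher with mutant CEBPA than with empty vector. The libraries held 349.4, 359.8 and 347.8 CPM with both mutants, 325.5, 371.4 and 404.3 with mutant CEBPA, 119.2, 126.7 and 150.9 with mutant CSF3R, and 126.2, 127.6 and 131.1 with empty vector. All 6 libraries with mutant CEBPA lay above all 6 without it. The log2 fold change was 1.52 ± 0.11 (SE) for mutant CEBPA versus empty vector (edgeR adjusted p = 8.18e-07), 1.41 ± 0.11 for both mutants versus mutant CSF3R (edgeR adjusted p = 1.90e-06) and 1.46 ± 0.11 for both mutants versus empty vector (edgeR adjusted p = 6.48e-07). Mutant CSF3R alone gave 0.04 ± 0.11, and both mutants versus mutant CEBPA gave -0.06 ± 0.11. Hmgcs1 lies at chr13:119690379-119708260 on the plus strand of mm10. An antisense gene, Gm48342, shares 10.8% of its 100-base transcript windows and had no row in the table, and the strand setting of the counting is not stated.

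The remaining 6 enzymes to farnesyl diphosphate did not share the rise of Hmgcs1. With mutant CEBPA versus empty vector their log2 fold changes ran from -0.35 to -0.09, and only Idi1, the isopentenyl diphosphate isomerase, passed the test (-0.34 ± 0.09, edgeR adjusted p = 0.0238). Mean Idi1 was 25.8 ± 2.48 CPM with mutant CEBPA and 32.6 ± 0.545 with empty vector. That call was lost under 5 of 19 alternatives, including without empty vector A or B and without mutant CEBPA A or B. The mevalonate kinase Mvk averaged 17.6 ± 0.533 CPM with both mutants, 16.3 ± 1.99 with mutant CEBPA, 26.7 ± 5.07 with mutant CSF3R and 20.8 ± 2.38 with empty vector.

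**Figure D2:**
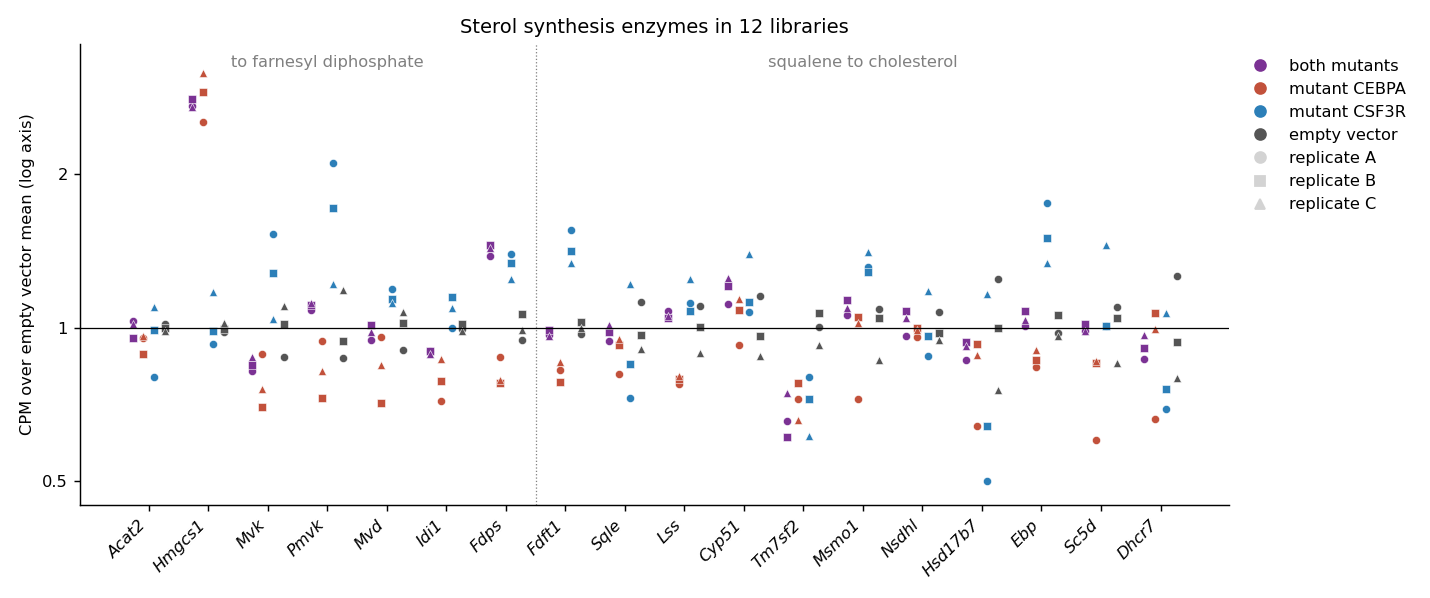
CPM of the 18 sterol synthesis enzymes in pathway order (x axis), each library divided by the empty vector mean (y axis, log scale). Colors are groups and marker shapes are the replicates A, B and C. Hmgcs1 stands apart in the 6 libraries with mutant CEBPA, while Pmvk, Fdft1 and Ebp are raised with mutant CSF3R.

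Pmvk, the phosphomevalonate kinase that follows Mvk, moved with mutant CSF3R. It averaged 32.9 ± 0.486 CPM with both mutants, 24.9 ± 3.18 with mutant CEBPA, 50.2 ± 13.3 with mutant CSF3R and 29.9 ± 4.95 with empty vector. The lowest mutant CSF3R library held 36.38 CPM, close to the highest empty vector library at 35.45 CPM. Pmvk was higher with mutant CSF3R than with empty vector (log2 0.75 ± 0.18, edgeR adjusted p = 0.0101) and lower with both mutants than with mutant CSF3R (-0.61 ± 0.18, edgeR adjusted p = 0.0324). The first call was lost without empty vector A and with only those groups fitted, and the second under 9 of 19 alternatives, among them without mutant CSF3R A or B, mutant CEBPA C or any library of both mutants. Mvk was also lower with both mutants than with mutant CSF3R (-0.60 ± 0.14, edgeR adjusted p = 0.0116), a call lost without both mutants A and when only those groups were fitted.

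Fdps, the farnesyl diphosphate synthase at the branch to isoprenoids, was higher in both groups that carried mutant CSF3R. It averaged 17.3 ± 0.431 CPM with both mutants, 9.91 ± 0.633 with mutant CEBPA, 16.2 ± 0.933 with mutant CSF3R and 12.2 ± 0.745 with empty vector. All 6 libraries with mutant CSF3R (15.2 to 17.7 CPM) lay above the other 6 (9.49 to 13.0 CPM). The log2 change was 0.80 ± 0.10 for both mutants versus mutant CEBPA (edgeR adjusted p = 8.2e-05), 0.41 ± 0.10 for mutant CSF3R versus empty vector (edgeR adjusted p = 0.0100) and 0.51 ± 0.10 for both mutants versus empty vector (edgeR adjusted p = 0.0020). The call for mutant CSF3R versus empty vector was lost under 4 of 19 alternatives, namely without empty vector A, with total counts, with no filter on low counts and with only those groups fitted. Mvd and Acat2, the remaining enzymes of this stretch, passed in no comparison.

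Among the 11 enzymes from squalene to cholesterol, Fdft1, Msmo1 and Ebp rose and Tm7sf2 fell with mutant CSF3R. Fdft1, the squalene synthase at the first step that leads only to sterols, averaged 46.7 ± 0.644 CPM with both mutants, 39.5 ± 1.75 with mutant CEBPA, 68.9 ± 5.12 with mutant CSF3R and 47.9 ± 1.25 with empty vector. The 3 mutant CSF3R libraries (64.3 to 74.4 CPM) lay above the other 9 (37.6 to 49.2 CPM). Its log2 change was 0.52 ± 0.08 with mutant CSF3R versus empty vector (edgeR adjusted p = 0.000683) and -0.56 ± 0.08 with both mutants versus mutant CSF3R (edgeR adjusted p = 0.000462). It was also lower with mutant CEBPA than with empty vector (-0.28 ± 0.08, edgeR adjusted p = 0.0368), a call lost under 12 of 19 alternatives, among them without any 1 empty vector library, mutant CSF3R B, mutant CEBPA A or B, or any library of both mutants. Fdft1 shares 21.5% of its transcript windows with other genes, mainly the abundant Ctsb on the opposite strand.

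Ebp, the sterol isomerase, was likewise highest with mutant CSF3R. It averaged 58.0 ± 1.99 CPM with both mutants, 48.5 ± 1.92 with mutant CEBPA, 85.6 ± 11.7 with mutant CSF3R and 55.8 ± 2.94 with empty vector. The log2 change was 0.62 ± 0.10 with mutant CSF3R versus empty vector (edgeR adjusted p = 0.000899) and -0.56 ± 0.10 with both mutants versus mutant CSF3R (edgeR adjusted p = 0.00202). Both calls held under all 19 alternatives. Msmo1, a methyl sterol oxidase, averaged 166 ± 8.11 CPM with mutant CSF3R and 124 ± 14.6 with empty vector (log2 0.42 ± 0.14, edgeR adjusted p = 0.0461), a call lost under 16 of 19 alternatives, among them without any single library other than mutant CEBPA A.

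Tm7sf2, a sterol reductase, was the member lowered by every mutant vector combination. It averaged 8.30 ± 0.838 CPM with both mutants, 8.93 ± 0.732 with mutant CEBPA, 8.82 ± 1.18 with mutant CSF3R and 12.4 ± 0.893 with empty vector. The 9 libraries with a mutant reached at most 9.92 CPM, and the 3 empty vector libraries held 11.4 CPM or more. The log2 change against empty vector was -0.57 ± 0.13 with both mutants (edgeR adjusted p = 0.0064), -0.47 ± 0.13 with mutant CEBPA (edgeR adjusted p = 0.0244) and -0.49 ± 0.13 with mutant CSF3R (edgeR adjusted p = 0.0192). The first held under all 19 alternatives, whereas each of the other calls was lost without empty vector A and without empty vector B, that of mutant CEBPA also without mutant CEBPA A or C and with total counts, and that of mutant CSF3R also with only those groups fitted. Its exons overlap those of Vps51, a more abundant gene on the same strand.

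Lss, which closes the sterol rings, was lower with mutant CEBPA than in the other groups by its mean. It averaged 73.2 ± 1.21 CPM with both mutants, 54.7 ± 0.963 with mutant CEBPA, 79.2 ± 6.02 with mutant CSF3R and 69.1 ± 7.23 with empty vector. Both mutants versus mutant CEBPA gave 0.42 ± 0.10 (edgeR adjusted p = 0.0079), called under every alternative, and mutant CEBPA versus empty vector gave -0.34 ± 0.10 (edgeR adjusted p = 0.0271), which was lost under 7 of 19, among them without empty vector A or B and without any of the 3 mutant CEBPA libraries. The other 6 enzymes of this stretch, Sqle, Cyp51, Nsdhl, Hsd17b7, Sc5d and Dhcr7, passed in no comparison, with log2 changes between -0.38 and 0.37. Cyp51 and Sqle were the most abundant of them, at 138 ± 19.4 and 192 ± 21.4 CPM with empty vector.

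The transcription factor genes of the pathway did not pass the test in any comparison. Srebf2, the SREBP gene that mainly drives sterol synthesis, held 221.2, 241.7 and 258.6 CPM with both mutants, 169.9, 206.3 and 198.0 with mutant CEBPA, 188.1, 214.9 and 295.2 with mutant CSF3R, and 257.4, 216.4 and 204.7 with empty vector. Srebf1, which mainly drives fatty acid synthesis, held 106.7, 121.8 and 122.1 CPM with both mutants, 74.70, 102.7 and 98.78 with mutant CEBPA, 90.96, 112.0 and 163.1 with mutant CSF3R, and 122.2, 98.94 and 84.84 with empty vector. Empty vector overlapped with each other group for both genes. The log2 changes ran from -0.24 to 0.33 for Srebf2 and from -0.15 to 0.34 for Srebf1. With mutant CEBPA versus empty vector they were -0.24 ± 0.16 for Srebf2 and -0.15 ± 0.20 for Srebf1. The mRNA of these genes does not measure the release of SREBP proteins, and the part of SREBP in the Hmgcs1 values was not tested. Srebf1 exons overlap those of Rai1 on the opposite strand.

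**Figure D3:**
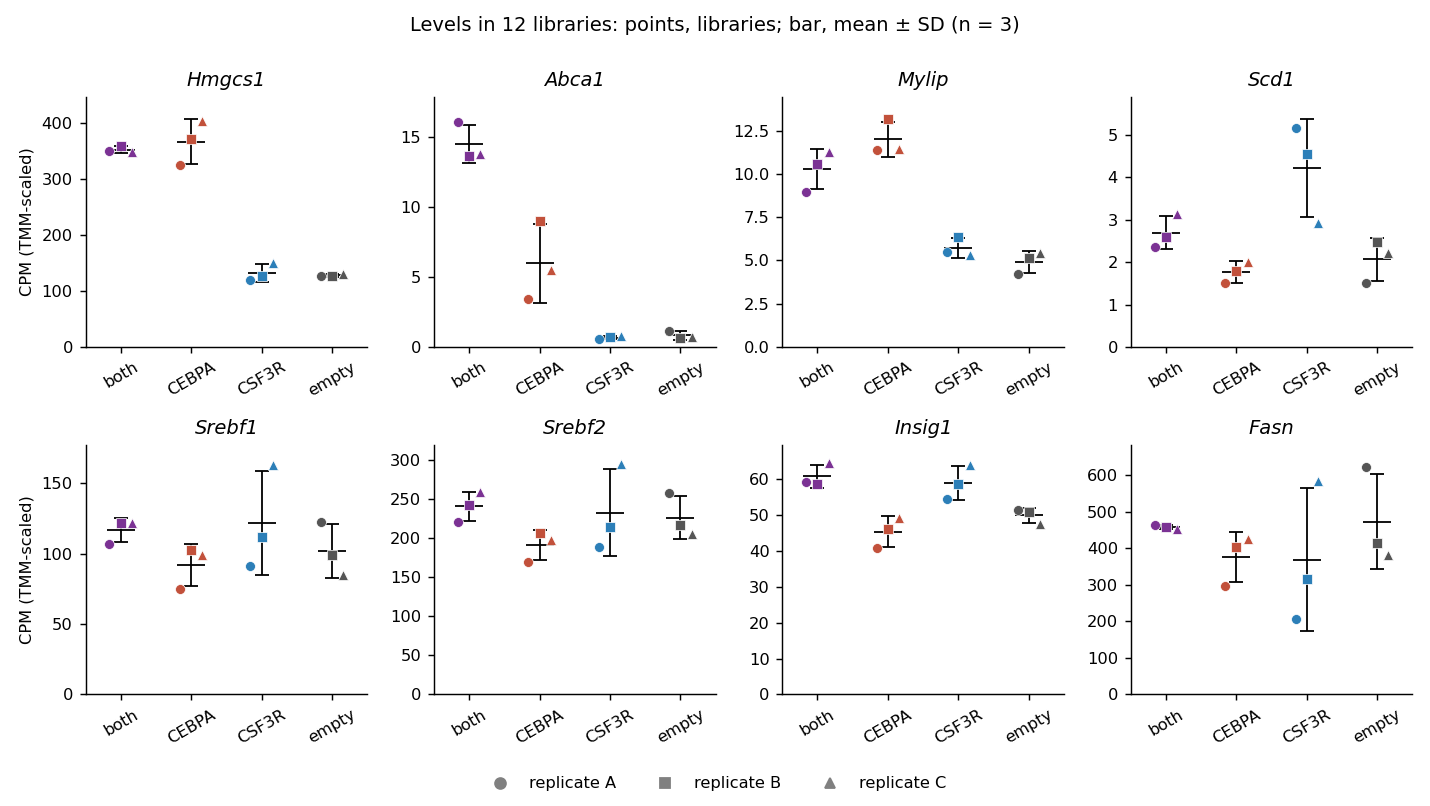
CPM (y axis, linear from 0) of 8 members in each library, by group on the x axis, with points for libraries and bars for the mean ± SD. Hmgcs1, Abca1 and Mylip separate the 6 libraries with mutant CEBPA from the other 6, and Srebf1, Srebf2 and Fasn vary widely within mutant CSF3R.

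Insig1, which retains SREBP in the endoplasmic reticulum and is itself an SREBP target, was higher with both mutants than with mutant CEBPA. It held 59.25, 58.51 and 64.42 CPM with both mutants, 40.66, 46.04 and 49.22 with mutant CEBPA, 54.43, 58.64 and 63.79 with mutant CSF3R, and 51.36, 50.67 and 47.47 with empty vector. The 6 libraries with mutant CSF3R lay above the other 6. The log2 change was 0.42 ± 0.10 for both mutants versus mutant CEBPA (edgeR adjusted p = 0.0093), lost without both mutants C, and 0.24 ± 0.10 for mutant CSF3R versus empty vector, which did not pass (edgeR adjusted p = 0.107). Stard4, a sterol transfer protein gene, averaged 104 ± 15.1 CPM with mutant CSF3R and 81.5 ± 0.5 with empty vector (log2 0.35 ± 0.11, edgeR adjusted p = 0.0363), a call lost under 15 of 19 alternatives, among them without any single library other than mutant CSF3R C.

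The abundant genes of fatty acid synthesis did not pass in any comparison, and the calls in this group fell on elongation and desaturation. Acly, Acaca (acetyl-CoA carboxylase), Fasn, Scd2 and Fads1 had log2 changes between -0.36 and 0.42. Elovl6, which extends palmitate, averaged 53.2 ± 2.10 CPM with both mutants, 39.3 ± 2.21 with mutant CEBPA, 54.0 ± 5.36 with mutant CSF3R and 49.97 ± 2.62 with empty vector. It was the only group member lower in mutant CEBPA than in empty vector by the test (-0.34 ± 0.10, edgeR adjusted p = 0.0246, lost without empty vector A, empty vector B or mutant CEBPA A and with no filter on low counts), and was higher with both mutants than with mutant CEBPA (0.43 ± 0.10, edgeR adjusted p = 0.0065). Fads2, a desaturase of polyunsaturated fatty acids, averaged 44.2 ± 1.99 CPM with both mutants and 34.97 ± 2.19 with mutant CEBPA (0.34 ± 0.11, edgeR adjusted p = 0.0450), a call lost under 11 of 19 alternatives, among them without empty vector B, mutant CSF3R B or any library of the compared groups.

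Scd1, a stearoyl-CoA desaturase that makes monounsaturated fatty acids, was 2.04-fold higher with mutant CSF3R but at a low level. It held 2.36, 2.596 and 3.14 CPM with both mutants, 1.503, 1.79 and 2.01 with mutant CEBPA, 5.16, 4.55 and 2.94 with mutant CSF3R, and 1.51, 2.47 and 2.22 with empty vector. The mutant CSF3R libraries lay above the empty vector libraries, the nearest pair being 2.94 and 2.47 CPM. The log2 change was 1.03 ± 0.25 (edgeR adjusted p = 0.0101), and the call was lost without empty vector A and when only the mutant CSF3R and empty vector libraries were fitted. Its paralog Scd2 was far more abundant, at 386 ± 71.8 CPM with empty vector, and Scd1 shares 2.66% of its transcript windows with Scd2, Scd3 or other genes.

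Within mutant CSF3R, Fasn, Acly and Hsd17b7 differed most between libraries. Fasn, named after its values were seen, held 464.9, 459.2 and 454.2 CPM with both mutants, 297.1, 403.9 and 425.6 with mutant CEBPA, 205.5, 317.3 and 585.1 with mutant CSF3R, and 622.6, 413.6 and 382.5 with empty vector. The ratio of mutant CSF3R A to C was 0.351 for Fasn, 0.417 for Acly, 0.430 for Hsd17b7 and 0.514 for Scd2, but 1.76 for Scd1 and 1.73 for Pmvk. Across the 33 members, which share those libraries, the log2 ratio had a Pearson r of -0.482 with log2 exon length, and across 16322 genes r was -0.38. Without mutant CSF3R C, the members lower with mutant CSF3R than with empty vector numbered 7 (21.2%) in place of 2, with Fasn, Acly, Acaca, Hsd17b7 and Sqle among them, and 20.1% of all genes were lower in that fit.

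**Figure D4:**
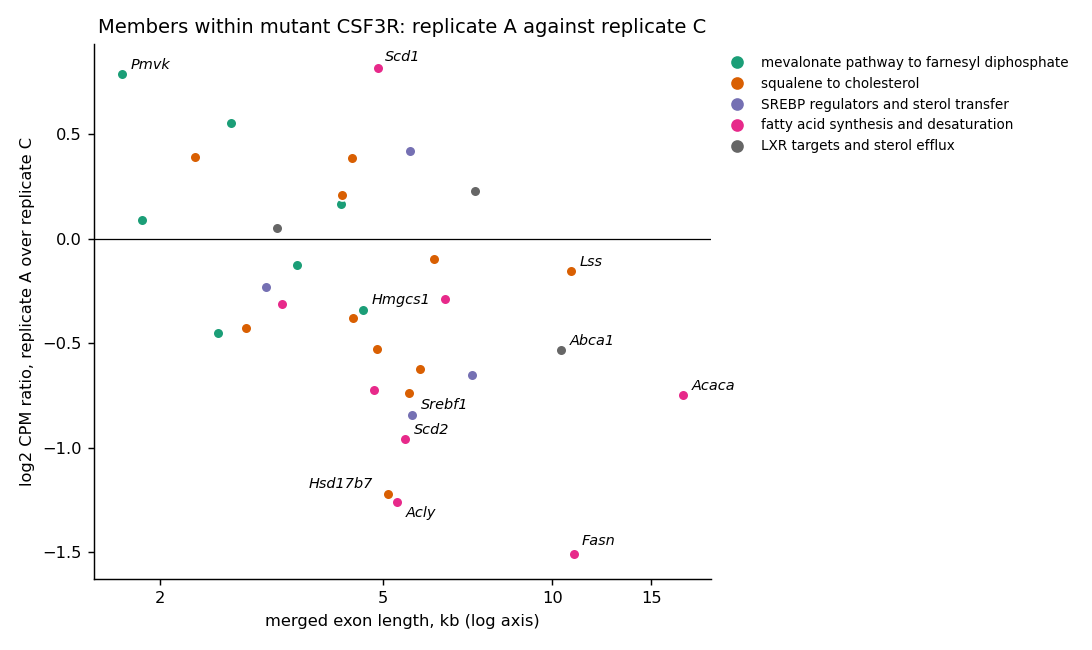
Log2 ratio of CPM in mutant CSF3R replicate A over replicate C (y axis) against merged exon length in kb (x axis, log scale), 1 point per member, colored by role. Fasn, Acly and Hsd17b7 are below -1, and Scd1 and Pmvk lie highest.

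Of the 3 LXR targets, Abca1 and Mylip rose with mutant CEBPA, and Abca1 had the widest change of all members. Abca1, which exports cholesterol to apolipoproteins, held 16.1, 13.7 and 13.8 CPM with both mutants, 3.45, 9.01 and 5.48 with mutant CEBPA, 0.537, 0.685 and 0.777 with mutant CSF3R, and 1.16, 0.612 and 0.694 with empty vector. The groups with both mutants and with mutant CEBPA did not overlap with each other or with the 6 libraries below them, where raw counts were 26 to 60. The log2 change was 4.13 ± 0.34 for both mutants versus empty vector (edgeR adjusted p = 1.78e-06), 2.85 ± 0.34 for mutant CEBPA versus empty vector (edgeR adjusted p = 5.74e-05), 1.28 ± 0.29 for both mutants versus mutant CEBPA (edgeR adjusted p = 0.0077) and 4.44 ± 0.35 for both mutants versus mutant CSF3R (edgeR adjusted p = 2.56e-06). These calls held under all 19 alternatives. Mutant CSF3R alone gave -0.31 ± 0.37 versus empty vector, which did not pass. Abca1 lies at chr4:53030787-53159895 on the minus strand of mm10.

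Mylip, a ubiquitin ligase that lowers sterol uptake, rose with mutant CEBPA at a lower fold. It held 8.99, 10.6 and 11.3 CPM with both mutants, 11.4, 13.2 and 11.5 with mutant CEBPA, 5.47, 6.37 and 5.29 with mutant CSF3R, and 4.21, 5.12 and 5.41 with empty vector. The 6 libraries with mutant CEBPA lay above the other 6. The log2 change was 1.29 ± 0.14 for mutant CEBPA versus empty vector (edgeR adjusted p = 3.03e-05), 1.07 ± 0.14 for both mutants versus empty vector (edgeR adjusted p = 0.000108) and 0.85 ± 0.14 for both mutants versus mutant CSF3R (edgeR adjusted p = 0.000938). Both mutants versus mutant CEBPA gave -0.22 ± 0.14, which did not pass.

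Abcg1, which exports cholesterol to lipoproteins, did not move with Abca1. It averaged 5.33 ± 0.279 CPM with both mutants, 5.81 ± 0.587 with mutant CEBPA, 3.88 ± 0.471 with mutant CSF3R and 6.13 ± 0.237 with empty vector. It was lower with mutant CSF3R than with empty vector (-0.66 ± 0.13, edgeR adjusted p = 0.00358), under every alternative, and higher with both mutants than with mutant CSF3R (0.46 ± 0.13, edgeR adjusted p = 0.0321), a call lost under 8 of 19, among them without mutant CSF3R B or any library of both mutants. With mutant CEBPA alone it gave -0.08 ± 0.13. Macrophages are known to express both exporters. The 10 macrophage genes, of which 7 were tested, summed to 48.45 to 70.8 CPM in the 6 libraries with mutant CEBPA. In the other 6 they summed to 102.8 to 218.6 CPM. The part of macrophages in the values of either exporter was not tested.

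Counted over the members and read against all 16360 genes, mutant CEBPA versus empty vector gave 3 higher (9.09%; 9.50% of all genes) and 5 lower (15.2%; 7.68% of all genes). Their median log2 change was -0.19, against 0.00414 over all genes. Above 0 were 5 of 33 members (8259 of all 16360 genes), namely Hmgcs1, Abca1, Mylip, Fads1 and Cyp51. The lower calls numbered 0 without empty vector A (6.35% of all genes) or without empty vector B (5.46%), 2 without mutant CEBPA A (6.38%) or B (5.80%), 3 without mutant CEBPA C (6.09%) and 8 without mutant CSF3R C (10.1%). The 3 higher calls were made under every alternative. In the same comparison 7 of 10 late neutrophil genes were lower and 1 higher (median -3.24), and 4 of the 7 macrophage genes tested, 4 of 10 mast cell and basophil genes and 4 of 9 erythroid genes were lower. Their part in the members' counts was not tested.

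Mutant CSF3R versus empty vector gave 7 members higher (21.2%; 10.0% of all genes) and 2 lower (6.06%; 9.66% of all genes), with a median of 0.20 against 0.0117 over all genes. Without empty vector A 2 were higher and 1 lower (6.98% and 6.93% of all genes), and without empty vector B 1 was lower (6.70%). Without mutant CSF3R C 7 were higher and 7 lower, 21.2% each, near the 17.8% and 20.1% of all genes called in that fit, and the median was 0.0092. In the same comparison the late neutrophil list had a median of 3.42 (7 of 10 higher), the erythroid list of 2.91 (9 of 9 higher), the mitosis list of 0.396 (6 of 10 higher), the stem and progenitor list of -0.881 (8 of 10 lower) and the mast cell and basophil list of -0.581 (6 of 10 lower), and their part in the members' counts was not tested.

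Both mutants versus mutant CEBPA gave 6 members higher (18.2%; 7.79% of all genes) and 0 lower (10.1% of all genes). At an unadjusted p under 0.05 there were 12 members (36.4%; 28.7% of all genes), all higher, and DESeq2 also called 0 lower. The median was 0.23 against -0.019 over all genes, and 28 of 33 were above 0, against 7801 of all 16360 genes. This comparison uses the same mutant CEBPA libraries as that of mutant CEBPA with empty vector. The count higher was 4 without both mutants C (5.23% of all genes) and 11 without mutant CSF3R C (10.7% of all genes). Here the late neutrophil list had a median of 2.95, the erythroid list of 2.54, the mitosis list of 0.345, the stem and progenitor list of -0.659 and the mast cell and basophil list of -0.928, and their part was not tested.

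Both mutants versus mutant CSF3R gave 4 members higher (12.1%; 8.43% of all genes) and 4 lower (12.1%; 10.1% of all genes), with 2 lower without both mutants A (5.54% of all genes). Without mutant CSF3R C there were 9 higher and 6 lower, and over all genes the shares in that fit were also higher, at 20.4% and 19.1%. Both mutants versus empty vector gave 4 higher (12.1%; 10.7% of all genes), namely Hmgcs1, Fdps, Abca1 and Mylip, and 1 lower, Tm7sf2 (3.03%; 10.7% of all genes). The share higher with both mutants versus empty vector was near that over all genes.

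The test of non-additivity, the interaction of the mutants, called 0 of 33 members in either direction (edgeR), against 0.501% of all genes higher and 1.27% lower. At an unadjusted p under 0.05 there were 7 members, or 21.2%, against 11.1% of all genes. Abca1 had the largest estimate, 1.59 ± 0.47 on the log2 scale (edgeR adjusted p = 0.153). DESeq2 called it (adjusted p = 0.0268), as did edgeR without mutant CEBPA B, and its adjusted p ranged from 0.0268 to 0.427 over the alternatives. Without mutant CSF3R C, edgeR called Acly, Fasn and Hsd17b7 higher and Ebp lower, in a fit that called 5.99% of all genes higher and 4.35% lower. For Fdps the estimate was 0.39 ± 0.14 (edgeR adjusted p = 0.257), so the response to mutant CSF3R with and without mutant CEBPA was not shown to differ.

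Other genes of these routes were taken from lists, whose counts stand against 10.0% of all genes higher and 9.66% lower with mutant CSF3R versus empty vector, and 9.50% and 7.68% with mutant CEBPA versus empty vector. At these shares 1 call among 10 to 12 genes is near the background. Vldlr, a lipoprotein receptor, rose with mutant CSF3R versus empty vector (0.48 ± 0.11, edgeR adjusted p = 0.00677) and with both mutants versus mutant CEBPA (0.38 ± 0.11, edgeR adjusted p = 0.0273).

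Of 10 genes of SREBP processing and degradation, 1 rose and 2 fell with mutant CEBPA versus empty vector (9.50% and 7.68% of all genes). Mbtps2, a protease that frees SREBP, rose (0.54 ± 0.10, edgeR adjusted p = 0.00191) and the ubiquitin ligase Rnf145 fell (-0.56 ± 0.12, edgeR adjusted p = 0.00613). None passed with mutant CSF3R versus empty vector, where 1 had an unadjusted p under 0.05 and 0 were called by edgeR. Of 12 genes of the isoprenoid branch, which uses farnesyl diphosphate to modify proteins and make coenzyme Q and dolichol, 1 rose with mutant CEBPA, Rabggta, a subunit of the Rab prenyl transferase (0.81 ± 0.09, edgeR adjusted p = 1.97e-05). With mutant CSF3R 1 also rose, Rabggtb, its partner subunit (0.87 ± 0.18, edgeR adjusted p = 0.00384). None of the 12 fell in either comparison, and 1 rise among 12 is near the shares over all genes given above.

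Of the 10 tested among 11 genes of LXR receptors and oxysterol enzymes, 2 rose and 1 fell with mutant CEBPA versus empty vector. Over all genes 9.50% rose and 7.68% fell in that comparison. Nr1h3, which encodes LXR alpha, fell (-2.38 ± 0.28, edgeR adjusted p = 6.2e-05), with 0.644 ± 0.121 CPM with both mutants, 0.397 ± 0.163 with mutant CEBPA, 1.75 ± 0.223 with mutant CSF3R and 2.07 ± 0.233 with empty vector. The more abundant Nr1h2, which encodes LXR beta and was chosen after its values were seen, did not pass there (0.11 log2) and averaged 91.5 ± 2.24 CPM with mutant CEBPA and 84.6 ± 2.97 with empty vector. Nceh1, a cholesteryl ester hydrolase, rose (2.28 ± 0.24, edgeR adjusted p = 2.52e-05) and averaged 219 ± 23.3 CPM with both mutants, 228 ± 40.6 with mutant CEBPA, 49.3 ± 19.2 with mutant CSF3R and 47.0 ± 8.52 with empty vector. Its 6 libraries with mutant CEBPA lay above the other 6, as for Hmgcs1.

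Of 15 further genes of fatty acid supply, elongation and activation, 4 rose and 1 fell with mutant CSF3R versus empty vector. Over all genes 10.0% rose and 9.66% fell there. With mutant CEBPA versus empty vector 1 rose and 3 fell, against 9.50% and 7.68% of all genes. Me1, the malic enzyme that supplies NADPH, rose with mutant CSF3R (1.19 ± 0.15, edgeR adjusted p = 0.0001). Acacb, an acetyl-CoA carboxylase of mitochondria, averaged 10.5 ± 0.635 CPM with both mutants, 2.74 ± 1.17 with mutant CEBPA, 4.06 ± 1.41 with mutant CSF3R and 2.09 ± 0.231 with empty vector, and rose with both mutants versus empty vector (2.33 ± 0.31, edgeR adjusted p = 0.00011). Acss2, which makes acetyl-CoA from acetate and is a known SREBP target, fell with both mutants versus empty vector (-1.20 ± 0.09, edgeR adjusted p = 5.07e-07). Its libraries ran from 14.7 to 16.1 CPM with both mutants and from 34.7 to 36.5 CPM with empty vector. The fall was not particular to both mutants. Raw counts of Acss2, not scaled to library size, were 963, 1354 and 930 with mutant CSF3R and 1405, 1257 and 1362 with mutant CEBPA. With empty vector they were 1854, 1587 and 1787.

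Several members share exons or sequence with other genes, which the counting could have split. Acaca shared 42.8% of its transcript windows with Gm5182, Acat2 35.3% with Acat3 or Tcp1, Idi1 27.6% with Gm13502 and other genes, and Fdps 6.69% mainly with Gm43738, while Cyp51 exons overlap Akap9 on the opposite strand. Values of these genes are uncertain to that extent.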

How the data were processed

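RNA was extracted with a micro column kit, libraries were made with a low input SMARTer kit, and reads were trimmed with Trimmomatic and aligned to mm10 with STAR by the authors. The authors deposited raw counts per gene for 12 libraries, and per the labels DESeq2 was also run. No source used here names the read counter, the annotation release or the strand setting. Of 51918 lines, 6 repeats were dropped, and 1750 missing symbols were filled from a name table.

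Genes with low counts were removed by group (filterByExpr in edgeR 4.0.16, R 4.3.3), leaving 16360. A quasi-likelihood model with robust dispersions, TMM factors and both mutants with their interaction was fitted to all libraries (common biological coefficient of variation 0.1662), and p-values were adjusted by Benjamini-Hochberg over all genes, with 0.05 as threshold. The step was tested on simulated data. The alternatives used DESeq2 1.42.0, other scaling, no filter, a length correction, a replicate block, only the compared groups and omission of each library. Exon lengths and overlaps came from GENCODE M21, and promoters from RefSeq. Values per library were given for the members past the threshold with an absolute log2 change over 1 and for Srebf1, Srebf2 and Insig1, and from each other pathway list at most 2 called genes per comparison were named, those with the widest change. The members and lists were chosen with earlier results of these data known. Some genes of the sterol synthesis and uptake list are not reported here.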

Additional observations from a re-analysis of the deposited data

How the results depend on the processing

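Of the 36 calls of members over the 5 pairwise comparisons, 20 were kept under all 19 alternatives and 0 reversed. DESeq2 kept 36, its size factors and the length correction 35 each, total counts 29, no filter on low counts 27, and fits of only the compared groups 27. The letters A, B and C were not shown to pair the libraries. Libraries with the same letter had correlations of deviations from -0.349 to 0.285. These deviations were taken from means of only 3 libraries, so they cannot tell whether a letter marks a shared animal or batch. A replicate block kept 29 calls and gave 3 members lower with mutant CEBPA versus empty vector (6.75% of all genes) in place of 5. It moved no other member count by more than 1.5 times.

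Parentheses here give the share or number of all genes in the same fit. With mutant CSF3R versus empty vector, the count higher was 7 and became 1 at a log2 change over 1 (732 genes). It was 4 with total counts (7.52%), 4 with no filter (4.83%) and 2 with only those groups (5.87%). When each library was left out it was 2 to 7 (6.95% to 17.8%). The count lower was 2, and became 0 at a log2 change under -1 (658 genes) and 1 with only those groups (5.25%). When each library was left out that count was 1 to 7 (6.70% to 20.1%). The median of 0.20 became 0.086 with total counts and 0.0092 to 0.198 when each library was left out. With mutant CEBPA versus empty vector, the 5 lower became 0 at a log2 change under -1 (587 genes). They numbered 3 with total counts (7.02%) and 1 with no filter (3.77%), and 0 to 8 when each library was left out (5.46% to 10.1%). The median ran from -0.26 to -0.11. With both mutants versus mutant CEBPA, the 6 higher became 1 at a log2 change over 1 (598 genes) and 12 with only those groups (14.9%). They numbered 4 to 11 when each library was left out (5.23% to 10.7%). With both mutants versus mutant CSF3R, the 4 higher became 2 at a log2 change over 1 (744 genes). They numbered 3 to 9 when each library was left out (5.87% to 20.4%). The 4 lower became 0 at a log2 change under -1 (678 genes) and 2 with only those groups (6.53%). They numbered 2 to 6 when each library was left out (5.54% to 19.1%), and the median ran from -0.083 to 0.12. The 1 lower with both mutants versus empty vector became 0 at a log2 change under -1 (891 genes). The interaction called 1 higher with DESeq2 (1.24%). When each library was left out it called 0 to 3 higher (0.213% to 5.99%) and 0 to 1 lower (0.685% to 4.35%). Its median ran from 0.038 to 0.26, and it could not be fitted with only the groups compared. The cause of these shifts was not tested. The 26 to 60 raw counts of Abca1 in the libraries without mutant CEBPA limit the precision of its fold changes.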

Other observations

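Of 11 genes that join fatty acids into triglycerides and phospholipids, 5 rose and 1 fell with mutant CSF3R versus empty vector, 3 rose and 3 fell with mutant CEBPA versus empty vector, and 4 rose and 1 fell with both mutants versus mutant CEBPA. Dgat2, an acyltransferase at the last step of triglyceride synthesis, averaged 321 ± 7.62 CPM with both mutants, 37.4 ± 1.501 with mutant CEBPA, 609.8 ± 140.4 with mutant CSF3R, and 81.0 ± 1.31 with empty vector (SD, n = 3 each). No group overlapped with another. Its log2 change was 2.91 ± 0.14 with mutant CSF3R versus empty vector (edgeR adjusted p = 4.43e-08), -1.12 ± 0.13 with mutant CEBPA versus empty vector (edgeR adjusted p = 5.67e-05) and 3.10 ± 0.14 with both mutants versus mutant CEBPA (edgeR adjusted p = 4.66e-08). Dgat1, the other acyltransferase of that step, held 193, 204 and 207 CPM with both mutants, 83.4, 97.5 and 94.8 with mutant CEBPA, 200.4, 150.1 and 156 with mutant CSF3R, and 55.9, 62.2 and 50.1 with empty vector. It rose with either mutant alone versus empty vector, by 1.59 ± 0.13 with mutant CSF3R (edgeR adjusted p = 1.96e-06) and 0.71 ± 0.12 with mutant CEBPA (edgeR adjusted p = 0.00123).

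Of 10 genes of fatty acid oxidation, 1 fell with mutant CSF3R versus empty vector, 1 rose with mutant CEBPA versus empty vector, and 2 fell with both mutants versus empty vector, with Acadm, a medium-chain dehydrogenase, at a log2 change of -0.33 ± 0.08 in the last (edgeR adjusted p = 0.0140). These counts stand against 10.0% of all genes higher and 9.66% lower with mutant CSF3R versus empty vector, 9.50% and 7.68% with mutant CEBPA versus empty vector, 7.79% and 10.1% with both mutants versus mutant CEBPA, and 10.7% each way with both mutants versus empty vector. Of 10 late neutrophil genes, 7 were higher with mutant CSF3R versus empty vector, 7 were lower and 1 higher with mutant CEBPA versus empty vector, and 5 were higher with both mutants versus mutant CEBPA, with medians of 3.42, -3.24 and 2.95. The gene higher with mutant CEBPA was Mmp8, a collagenase of neutrophil granules, at 1181 ± 96.2 CPM with both mutants, 841 ± 150.4 with mutant CEBPA, 85.9 ± 50.7 with mutant CSF3R and 5.39 ± 1.92 with empty vector. Their part in the Dgat2 and Dgat1 values was not tested.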
